A study of Rattus norvegicus with 21 samples.

Results

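The extracellular matrix of the islet was followed through 10 genes, chosen by name: fibronectin (Fn1), the matricellular proteins periostin (Postn), tenascin C (Tnc), Sparc and the thrombospondins Thbs1 and Thbs2, the large proteoglycan versican (Vcan) and the small leucine-rich proteoglycans decorin (Dcn), biglycan (Bgn) and lumican (Lum). All 10 were among the 28914 gene names of the count table, and all 10 passed the filter on low counts beside 13136 genes tested in all. Pancreatic islets, the endocrine cell clusters that make insulin and glucagon, were taken from Lewis rats and their polyadenylated RNA was sequenced. In the partial pancreatectomy group (PX, n = 11 libraries) 90% of the pancreas had been removed and the rest of the gland left in place. The control animals were sham-operated (Sham, n = 10 libraries). All libraries were taken 4 weeks after surgery and come from the same strain, described in the labels as 4 to 5 week rats. Every sample title also carries the tag Inc YES, whose meaning the labels do not give. No transgene or drug is named, and libraries are called here by group and animal number. The study asks how hyperglycemia acts on islet cells, and the labels give an average BG of each animal before sacrifice, with no unit. PX animals averaged 124 ± 23.1 (SD over 11 animals) and Sham animals 94.7 ± 6.001 (SD over 10 animals).

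Matricellular proteins are secreted into the matrix but serve mainly as signals: they bind integrins, growth factors and collagen, are low in most resting adult tissues and are known to be made during wound repair and fibrosis. Proteoglycans carry glycosaminoglycan chains on a protein core; the small leucine-rich members bind collagen fibrils and the large ones bind hyaluronan and swell the tissue. In the pancreas, activated stellate cells and fibroblasts are known as sources of most of these proteins, while the healthy islet interior is poor in matrix apart from its vascular basement membrane. The libraries are of whole islet preparations, so more cells of a type and more RNA per cell cannot be told apart.

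Islet hormone and beta cell genes were abundant in every library, with a summed level of 15 endocrine markers from 87992.5 to 246164 CPM in PX and from 99303 to 175254 CPM in Sham (CPM, reads scaled to a common library size with TMM factors). Library totals ran from 4001908 to 13187959 counts in PX and from 4695195 to 11266015 in Sham. The acinar markers of the enzyme-secreting exocrine tissue took 5.84% to 45.1% of the counts in PX and 0.606% to 22.5% in Sham. Sham 46 and PX 44 stood apart in the genes described here, as given below, and PX 65 had the most acinar RNA. Apart from the animal number no label says that each library is a separate animal, and the p-values below rest on library-to-library spread alone.

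All 10 genes were higher in PX than in Sham. Among all genes tested, 14.9% were called higher and 16.2% lower, 31.1% in either direction, at an adjusted p under 0.05 (edgeR quasi-likelihood test, Benjamini-Hochberg over all genes). These were 1961 genes higher and 2127 lower; scaled by library totals only they were 990 and 2227, and all 10 members were still called higher. Log2 fold changes of the members ran from 1.26 for Thbs1 to 5.08 for Postn, with a median of 2.57 against -0.04 over all genes. In 6 of the 10, Postn, Tnc, Sparc, Vcan, Dcn and Lum, every PX library lay above every Sham library; 1.55% of all genes tested showed this. The members were named with earlier results of these libraries known, so their shared direction is not independent evidence.

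The start regions of the 3 genes with the highest fold changes, Postn, Vcan and Tnc, are shown beside that of Thbs1, which had the lowest, so that genes of the same direction and very different size of change can be read against each other. Each is 250 bases before to 50 after the annotated start, from RefSeq on build GRCr8, printed 5′ to 3′ on the gene's strand. Capitals mark letters that match any of 6 motifs searched for on both strands, and no matches of different motifs overlapped. The TATA box was searched for as TATAAA. The CCAAT box was searched for as its own letters. The AP-1 motif was written as TGANTCA. The letters taken for TEAD factors were GGAATG. Those taken for SMAD factors were CAGACA. The NF-kB motif is given here by its name alone.
Postn, chr2:140677811-140678110, plus strand: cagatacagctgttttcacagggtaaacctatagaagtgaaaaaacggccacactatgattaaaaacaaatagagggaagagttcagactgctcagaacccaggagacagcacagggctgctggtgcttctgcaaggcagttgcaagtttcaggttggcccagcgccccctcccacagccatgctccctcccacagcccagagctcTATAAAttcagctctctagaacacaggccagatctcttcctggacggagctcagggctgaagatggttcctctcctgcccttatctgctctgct
Vcan, chr2:22595906-22596205, minus strand: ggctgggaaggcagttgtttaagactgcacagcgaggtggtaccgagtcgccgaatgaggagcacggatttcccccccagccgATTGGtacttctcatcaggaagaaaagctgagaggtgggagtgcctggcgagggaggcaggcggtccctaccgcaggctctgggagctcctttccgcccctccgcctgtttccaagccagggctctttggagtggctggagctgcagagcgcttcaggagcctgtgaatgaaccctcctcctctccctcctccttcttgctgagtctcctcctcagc
Tnc, chr5:82476082-82476381, minus strand: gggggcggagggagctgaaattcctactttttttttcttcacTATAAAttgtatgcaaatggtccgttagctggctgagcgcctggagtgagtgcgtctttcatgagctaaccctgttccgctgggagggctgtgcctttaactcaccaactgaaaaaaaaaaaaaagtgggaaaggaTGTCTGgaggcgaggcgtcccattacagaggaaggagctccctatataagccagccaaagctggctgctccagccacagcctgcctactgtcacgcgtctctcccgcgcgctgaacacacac
Thbs1, chr3:125510000-125510299, plus strand: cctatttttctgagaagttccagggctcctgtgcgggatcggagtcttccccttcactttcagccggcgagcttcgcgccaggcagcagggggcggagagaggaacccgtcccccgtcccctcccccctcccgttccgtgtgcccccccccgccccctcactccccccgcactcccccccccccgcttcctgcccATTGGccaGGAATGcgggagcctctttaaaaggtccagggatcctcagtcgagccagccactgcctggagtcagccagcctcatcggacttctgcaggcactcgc
Sequences were matched by symbol for 6 of the 10 members, with 7 regions in all since Vcan has 2 starts. The TATAAA letters lay at -44 in Postn and at -208 in Tnc, counted from the start; 14.2% of all 33469 regions of this length hold them. CCAAT letters, in 37.5% of all regions, were in 1 of the Vcan regions, in Thbs1 and in Lum. GGAATG, in 14.2% of all regions, was in Thbs1 and Sparc, and CAGACA, in 21.1%, was in Tnc and Sparc. Neither TGANTCA nor the NF-kB motif, in 7.33% and 1.11% of all regions, was found in the 7. These letters are described only and no site of binding was measured. The regions of the genes with the highest fold changes shared no motif that the Thbs1 region lacked, other than TATAAA in Postn and Tnc.

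Fibronectin is the scaffold glycoprotein on which other matrix proteins are laid down, and its gene stood on chromosome 9 from 78900103 to 78969078 in the coordinates of the count table, whose build is not given in the sources used here. Fn1 had a lowest, median and highest level of 17.6, 61.9 and 221 CPM in PX, against 3.59, 6.12 and 61.3 CPM in Sham. PX 44 gave the lowest PX value and Sham 46 the highest Sham value, with the next Sham library at 10.8 CPM, so the groups overlapped and 6 of 11 PX libraries lay above Sham 46. Its log2 fold change was 2.99 ± 0.55 (SE; edgeR adjusted p = 0.00035), a 7.96-fold rise. Without Sham 46 it was 4.00 (edgeR adjusted p = 6.5e-07).

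Periostin, a protein that binds collagen and integrins and is known from injured and remodelling connective tissue, had the highest fold change. Postn (chromosome 2, 143656793 to 143688087) had a lowest, median and highest level of 22.5, 70.5 and 211 CPM in PX, against 0.467, 1.69 and 11.04 CPM in Sham. The groups did not overlap, although 9 of the 10 Sham libraries were at 2.59 CPM or less and Sham 46 alone was higher. Postn rose 33.8-fold, a log2 fold change of 5.08 ± 0.55 (SE; edgeR adjusted p = 1.8e-06), and 5.83 without Sham 46 (edgeR adjusted p = 1.6e-07). Among all genes tested it ranked 12 by log2 fold change.

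Tenascin C is a large glycoprotein with many arms, known from embryonic tissue, wounds and tumours. Tnc (chromosome 5, 79789671 to 79874671) had a lowest, median and highest level of 6.50, 41.6 and 124 CPM in PX, against 0.874, 1.69 and 4.59 CPM in Sham. PX 44 and PX 38, at 6.50 and 7.68 CPM, stood well below the other PX libraries, which began at 27.3 CPM, yet above every Sham library. The log2 fold change was 4.49 ± 0.46 (SE; edgeR adjusted p = 9.0e-07), a 22.5-fold rise. In Sham the counts behind it were 6 to 42 reads per library, so single Sham values are imprecise.

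Sparc, a collagen-binding protein that controls matrix assembly, was the most abundant member per length in both groups and the most even in PX. Its gene (chromosome 10, 40742400 to 40764185) had a lowest, median and highest level of 496, 664 and 961 CPM in PX, against 216, 254 and 451 CPM in Sham. The groups did not overlap, with PX 37 lowest in PX and Sham 46 highest in Sham. The highest PX library was 1.94 times the lowest, against 19.2 times for Vcan. The log2 fold change was 1.33 ± 0.14 (SE; edgeR adjusted p = 5.9e-07), a 2.51-fold rise.

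The thrombospondins bind many partners in the matrix; Thbs1 is known as an activator of latent TGF-beta and both are known as inhibitors of vessel growth. Thbs1 (chromosome 3, 109862117 to 109873466) had a lowest, median and highest level of 205, 306 and 747 CPM in PX, against 105, 130.4 and 254 CPM in Sham. The groups overlapped: 7 of 11 PX libraries lay above Sham 46, and Sham 24, at 221 CPM, was also above PX 62 and PX 66. It rose 2.39-fold, by 1.26 ± 0.22 on the log2 scale (SE; edgeR adjusted p = 0.00016). Thbs2 (chromosome 1, 56653938 to 56683731) had a lowest, median and highest level of 8.77, 17.9 and 50.2 CPM in PX, against 2.72, 4.05 and 10.3 CPM in Sham. Only PX 57 fell within the Sham range, below Sham 46. Thbs2 rose 4.38-fold, by 2.13 ± 0.31 on the log2 scale (SE; edgeR adjusted p = 2.1e-05).

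The pair changed unequally. The log2 ratio of Thbs1 to Thbs2 counts within a library averaged 4.15 ± 0.61 over the 11 PX libraries and 4.98 ± 0.30 over the 10 Sham libraries (± SD), and differed by -0.83 (permutation test, two-sided, p = 0.00026, adjusted p = 0.00043 over the 5 ratios computed). In 9 of 11 PX libraries the ratio lay below every Sham library. Such a ratio needs no scaling of library totals.

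Versican is a chondroitin sulfate proteoglycan that binds hyaluronan and is known from inflamed and developing tissue. Vcan (chromosome 2, 18490102 to 18565842) had a lowest, median and highest level of 4.76, 12.6 and 91.6 CPM in PX, against 0.177, 0.578 and 1.85 CPM in Sham. PX 58 stood far above the next PX library, PX 41 at 35.8 CPM, and the groups did not overlap. The log2 fold change was 4.98 ± 0.59 (SE; edgeR adjusted p = 3.4e-06), a 31.5-fold rise. Sham libraries held 1 to 13 reads of this gene, so the Sham level and with it the fold are loosely set.

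Decorin, biglycan and lumican share a core of leucine-rich repeats and bind collagen fibrils; decorin and biglycan carry chondroitin or dermatan sulfate and lumican carries keratan sulfate. Dcn (chromosome 7, 38742051 to 38782323) had a lowest, median and highest level of 48.7, 79.5 and 168 CPM in PX, against 16.01, 22.5 and 30.1 CPM in Sham. The groups did not overlap, with 6 PX libraries from 48.7 to 79.5 CPM and 5 from 124 to 168 CPM. Dcn rose by 2.15 ± 0.23 on the log2 scale (SE; edgeR adjusted p = 9.0e-07), 4.45-fold.

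Lum lies beside Dcn on chromosome 7, from 38819771 to 38826862 in the count table, on the same strand. It had a lowest, median and highest level of 13.9, 19.7 and 100.4 CPM in PX, against 1.70, 3.48 and 8.75 CPM in Sham. All PX libraries lay above Sham 46, the highest Sham library. Lum rose by 3.16 ± 0.40 on the log2 scale (SE; edgeR adjusted p = 6.5e-06), 8.95-fold. Bgn (chromosome X, 157319046 to 157331204) had a lowest, median and highest level of 53.6, 151 and 262 CPM in PX, against 27.3, 49.9 and 129.9 CPM in Sham. PX 44, PX 57, PX 65 and PX 66 lay below Sham 46, and PX 44 also lay below Sham 24 and Sham 73. Bgn rose by 1.39 ± 0.25 on the log2 scale (SE; edgeR adjusted p = 0.00026), 2.63-fold.

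Within the small leucine-rich proteoglycans the balance moved towards lumican. The log2 ratio of Lum to Dcn averaged -1.58 ± 0.48 over the PX libraries and -2.50 ± 0.51 over the Sham libraries (± SD, as for the other ratios), and differed by 0.92 (permutation test, two-sided, adjusted p = 0.00085 over the 5 ratios). That of Bgn to Lum was 2.24 ± 0.82 in PX islets against 3.81 ± 0.55 in Sham islets, differing by -1.57 (permutation test, adjusted p = 0.00035), with 7 of 11 PX libraries below every Sham library. Versican gained on decorin: the log2 ratio of Vcan to Dcn was -2.56 ± 1.01 in PX islets against -5.13 ± 0.91 in Sham islets, differing by 2.57 (permutation test, adjusted p = 3e-04), with 9 of 11 PX libraries above every Sham library. For Bgn to Dcn the difference was -0.65, with 0.66 ± 0.78 in PX islets against 1.31 ± 0.54 in Sham islets (permutation test, adjusted p = 0.0396). This last call ended without any 1 of PX 36, 44, 57, 58, 62 and 65 or Sham 46, 47, 48 and 74 (adjusted p from 0.056 to 0.079).

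**Figure D1:**
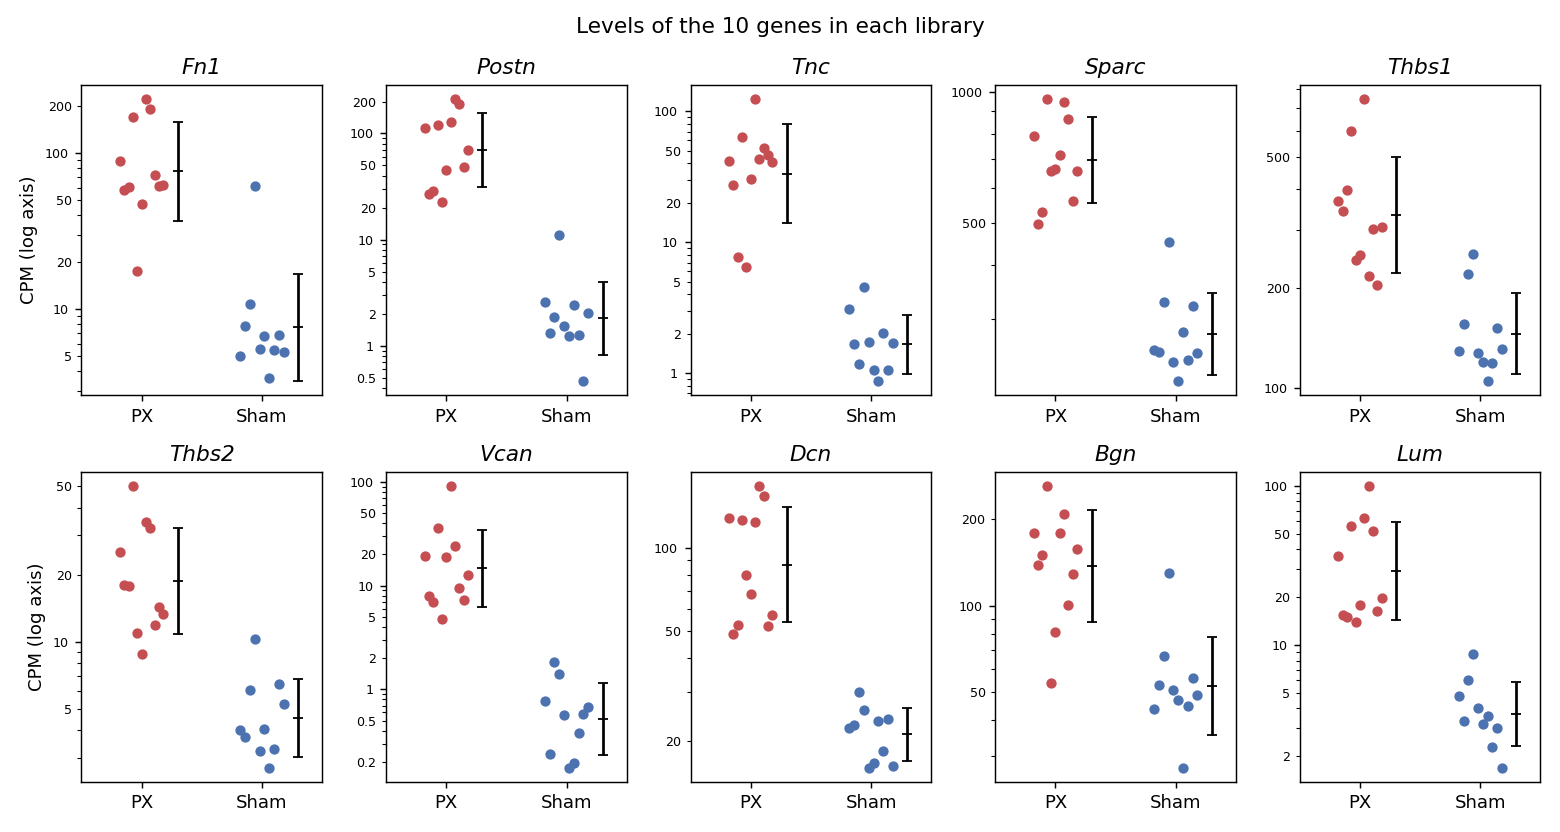
Level of each gene in CPM on a log axis, 1 point per library, with PX left of Sham; the black bar is the mean of log2 CPM and its SD, drawn beside the points. Every PX library lies above every Sham library for Postn, Tnc, Sparc, Vcan, Dcn and Lum, while Fn1, Thbs1, Thbs2 and Bgn overlap, with Sham 46 as the highest Sham point in each of these 4.

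Per kilobase of the gene length in the count table, the levels of the members could be set against each other. In PX the order was Sparc at 345 CPM per kb, Thbs1 at 99.02, Bgn at 61.5, Dcn at 51.7, Postn at 28.3, Lum at 18.3, Fn1 at 11.3, Tnc at 6.10, Thbs2 at 3.67 and Vcan at 1.88 CPM per kb. In Sham the first 4 came in the same order, at 137, 41.5, 23.4 and 11.6 CPM per kb. They were followed in Sham by Lum at 2.02, Fn1 at 1.41, Thbs2 at 0.835, Postn at 0.798, Tnc at 0.263 and Vcan at 0.0594 CPM per kb. Postn stood thus at place 5 in PX and at place 8 in Sham. Neighbours that were not separated were Bgn and Dcn in PX, where Bgn was the higher in 7 of 11 libraries, and in Sham Fn1 and Thbs2 (6 of 10) and Thbs2 and Postn (7 of 10). Together the 10 genes took 0.0647% to 0.283% of all counts in PX and 0.0400% to 0.105% in Sham, and the PX share was lowest in PX 65, whose counts were 45.1% acinar.

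The same libraries were high or low for many of the genes. PX 41, PX 58 and PX 62 were among the 3 highest PX libraries for 8, 7 and 8 of the 10 genes, and all 10 of the highest PX values were theirs. PX 44 was lowest in PX for 6 genes, Fn1, Postn, Tnc, Vcan, Bgn and Lum. Sham 46 was the highest Sham library for 8 genes, all but Vcan and Dcn, where Sham 24 was highest. PX 44 had a BG of 101, inside the Sham range of 82 to 104, and Sham 46 had a BG of 97. In PX 44, 7 of 10 genes lay above the highest Sham library. All of these but Thbs2 are genes already described as having every PX library above every Sham library. The share of all genes that did so in PX 44 was not computed, and a relation of these places to BG was not tested.

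**Figure D2:**
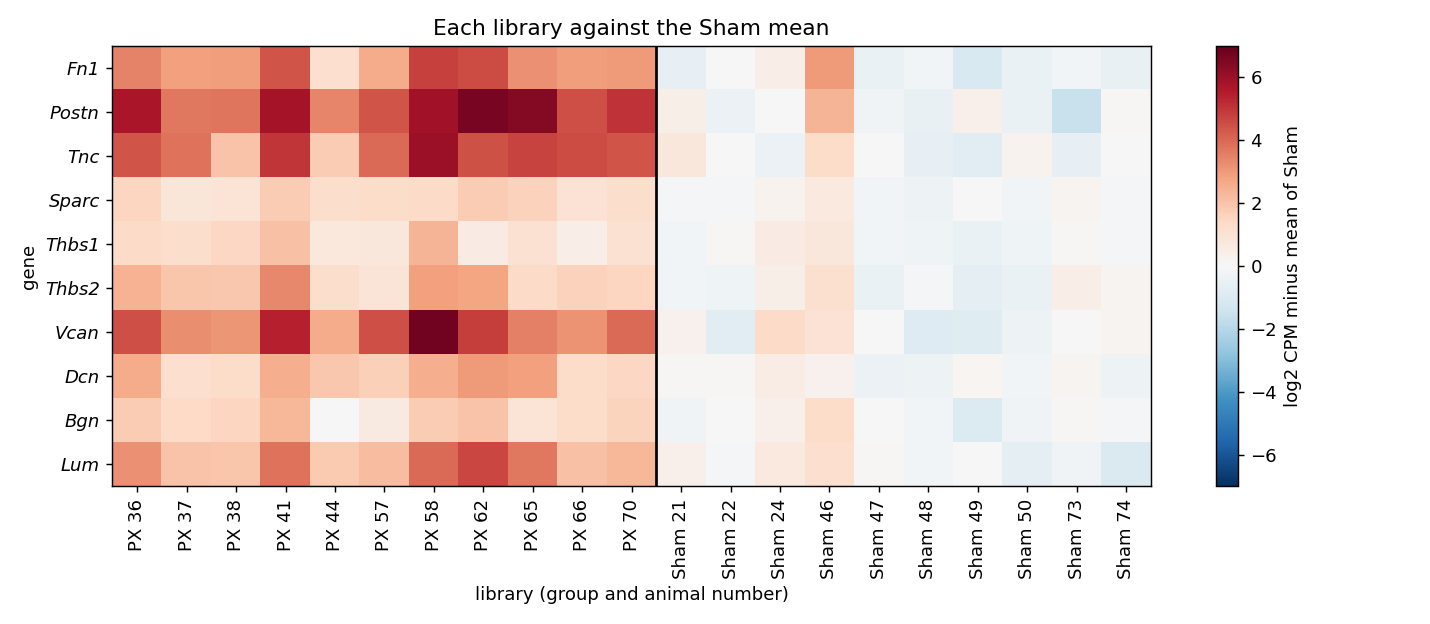
Difference of log2 CPM from the mean of Sham, for each gene (rows) and library (columns, PX at the left of the line, by animal number). PX 41, 58 and 62 are the darkest columns and PX 44 the palest in PX, while Sham 46 is above the Sham mean in every row, most in Fn1 and Postn, and Sham 24 is above it in all rows but Postn and Tnc.

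How alike the members were from library to library was described with the group means removed, as Pearson's r and Spearman's rho of log2 CPM over the 21 libraries. The values of a pair come from the same libraries and share their scaling, and no test is given. Bgn went most closely with Fn1 (r = 0.90, rho = 0.85) and with Thbs2 (r = 0.86, rho = 0.85). Dcn went most closely with Lum (r = 0.86, rho = 0.80) and Sparc (r = 0.83, rho = 0.87), and Postn with Lum (r = 0.83, rho = 0.84). Dcn and Bgn, both small leucine-rich proteoglycans, had the lowest r of all 45 pairs (r = 0.31, rho = 0.35). The pair of Postn and Thbs1 was almost as low (r = 0.33, rho = 0.28). All 45 pairs had an r above 0.

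The 3 tested genes outside the list with the highest r to each member, on the same scale, were named by rule. For Fn1 they were C7, Fkbp10 and Adam12 (r from 0.92 to 0.96), and for Bgn Fbn1, Lamb2 and Htra1 (all r = 0.95). Lum was nearest to Mrc1, Vim and Csf1r (r from 0.92 to 0.94) and Dcn to Cd53, Fcgr1a and Mrc1 (r = 0.89 for each); Mrc1 and Csf1r are on the list of macrophage markers. For Postn the nearest were Lgmn, Mdfic and Klhl6 (r from 0.87 to 0.89), and for Thbs2 B4galt5, Mrc2 and Msn (r = 0.90 for each). Vcan was nearest to Flna, Tgfbi and Ccl7 (r = 0.85 for each) and Sparc to Pros1, Cd34 and Frem1 (r from 0.83 to 0.85). Tnc and Thbs1 had the loosest neighbours, Rest, Sphk1 and Thbd at r from 0.81 to 0.82 for Tnc, and Pcdh18 at r = 0.79 and Slit2 at r = 0.78 among those of Thbs1. Over the same 21 libraries the mean log2 CPM of the stellate cell, fibroblast and pericyte markers had an r of 0.94 with Fn1, 0.89 with Bgn and with Thbs2, and 0.60 with Dcn. The mean of the macrophage markers had an r of 0.91 with Lum, 0.75 with Dcn and 0.43 with Thbs1. The members did not divide cleanly between the scores. Fn1 also had an r of 0.84 with the macrophage markers, and Lum 0.83 with the stellate cell, fibroblast and pericyte markers. Postn had 0.76 with the stellate cell, fibroblast and pericyte markers and 0.83 with the macrophage markers.

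The question put by the BG of the animals is whether the matrix genes were higher in the more hyperglycemic PX islets. Within the 11 PX libraries 0 of 10 members were called, beside 0% of the 11196 genes tested, with 1439 genes at an unadjusted p under 0.05 (edgeR) and 18 genes called by DESeq2, none of them a member. Slopes of the members ran from 0.01 ± 0.19 for Vcan to 0.16 ± 0.12 for Postn in log2 units per 10 units of BG (SE; edgeR adjusted p from 0.52 to 0.99). The SE, 0.19 for Vcan and 0.14 for Tnc, leaves room for slopes of either sign in all 10 genes. Sparc, the member with the smallest p, had a slope of 0.063 ± 0.042 (SE, edgeR unadjusted p = 0.16). PX 65, with the highest BG of 174, had the next to highest Postn and Dcn levels in PX, at 188 and 154 CPM, but Bgn, Thbs2 and Vcan at 101, 11.9 and 9.53 CPM, below the PX medians. The TMM factor of PX 65 was 0.359, against 0.820 in PX 62, the next lowest in PX. Its high places for Postn and Dcn thus depend on the scaling. PX 58 and PX 62, with the highest values of 7 genes between them, had a BG of 114 and 110. PX 41, with the next to highest BG of 156, had the highest values of the other 3, Sparc, Thbs2 and Bgn. It was among the 3 highest PX libraries for 8 of the 10 genes.

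With the 8 PX animals of BG 121 or less, all 10 genes were still called against Sham (edgeR adjusted p from 6.7e-06 to 0.0018), and their log2 fold changes ran from 1.28 for Thbs1 to 5.07 for Vcan. Of all 13226 genes tested in this fit, 12% were called higher and 7.24% lower. The BG of these PX animals was 101 to 121, against 82 to 104 in Sham, so the groups were not matched for BG. Animal numbers fall in runs of 1 group each, PX 36 to 44 and 57 to 70, and acinar shares differed between runs, so the groups cannot be compared within a run. Against all Sham, PX 36 to 44 gave Postn and Fn1 4.58 and 2.75 and PX 57 to 70 gave 5.46 and 3.24 on the log2 scale, and all 10 genes were called in each (edgeR). Of all genes tested, 8.23% were called higher with PX 36 to 44 and 21.7% with PX 57 to 70. Against Sham 46 to 50 alone, all 10 were called as well (edgeR adjusted p from 8.4e-04 to 0.029), beside 9.01% of all genes tested called higher.

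**Figure D3:**
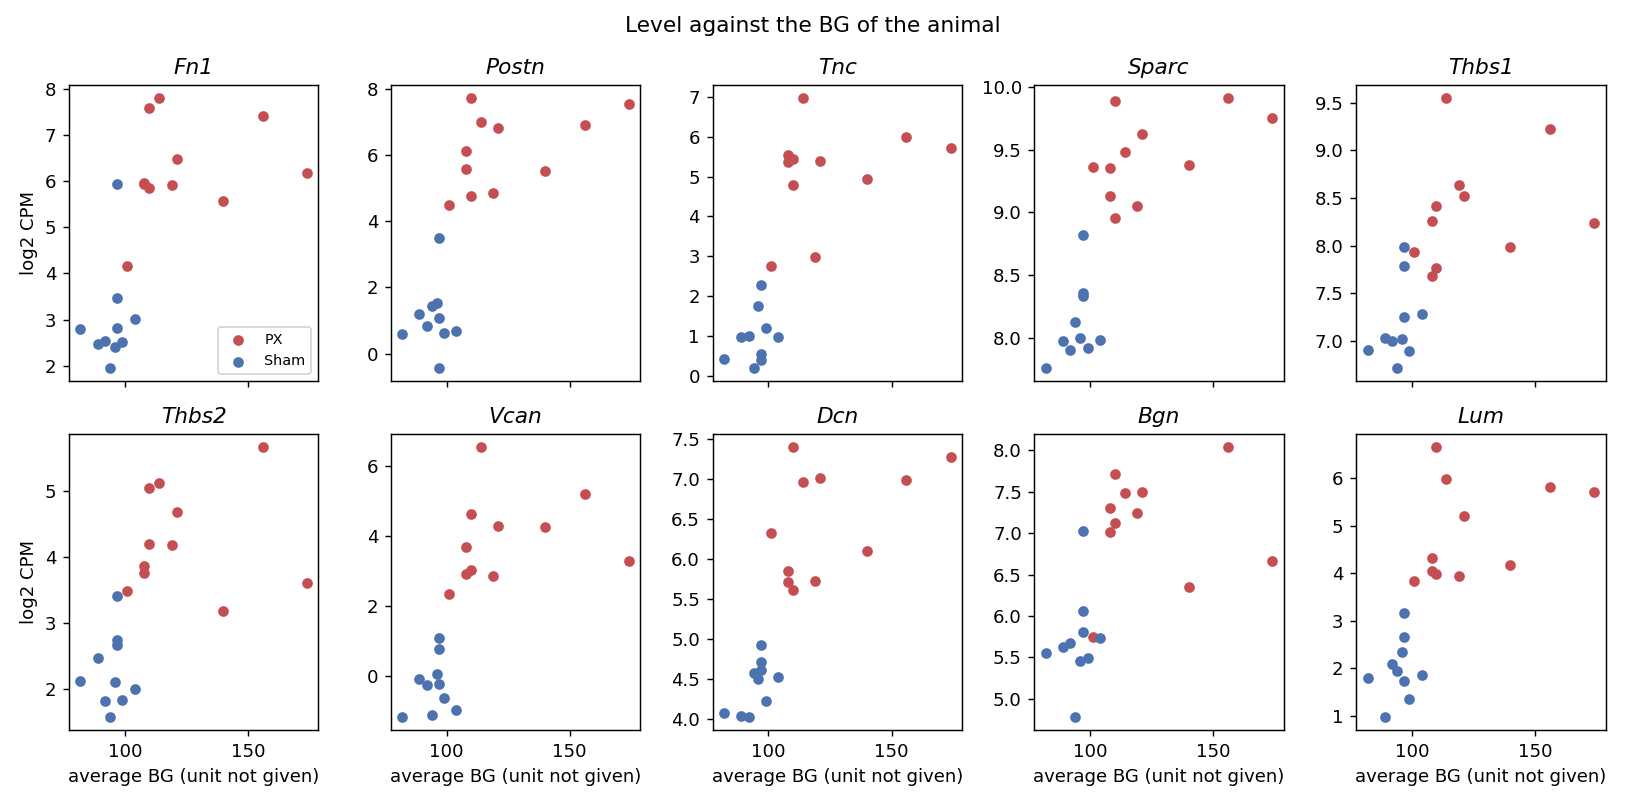
Level of each gene in log2 CPM (vertical axis) against the average BG of the animal (horizontal axis, unit not given), with PX and Sham libraries as separate colours. Within PX no gene is called for a slope. The highest points of Fn1, Tnc, Thbs1 and Vcan all belong to PX 58, at a BG of 114, and those of Sparc, Thbs2 and Bgn to PX 41, at 156.

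**Figure D4:**
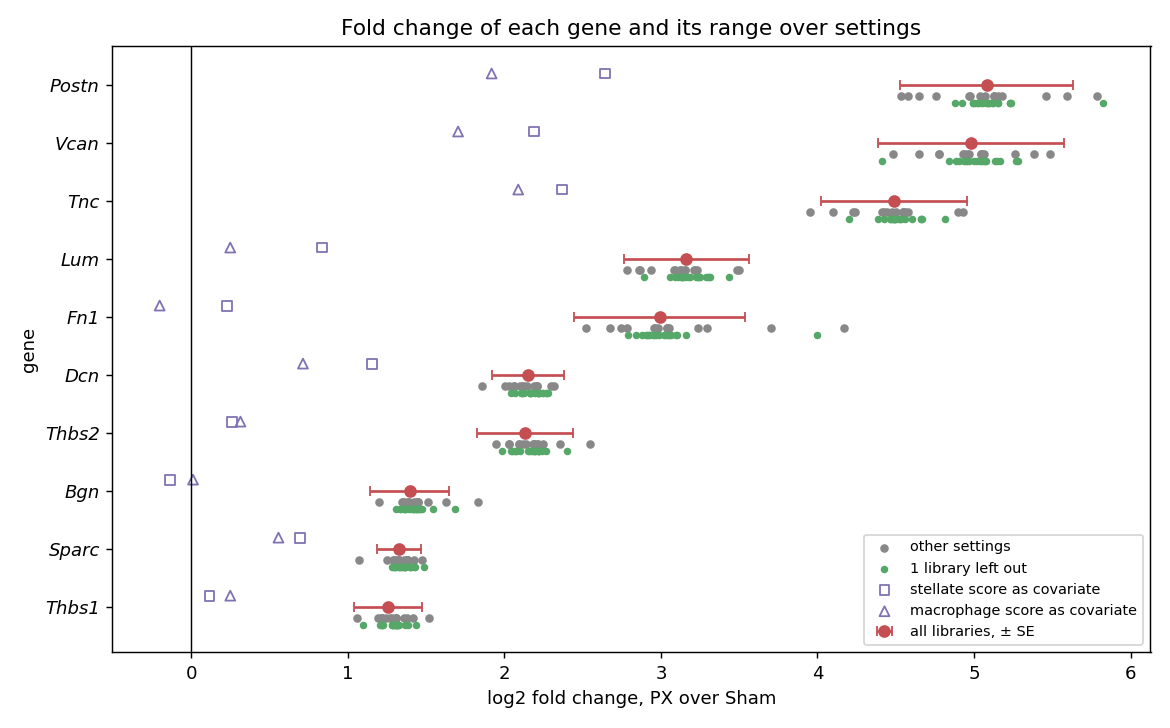
Log2 fold change of PX over Sham for each gene with its SE (filled red points), with the values under other settings below it and the fits with a marker score as covariate above it as open symbols. Leaving out 1 library moves Fn1 most, to 4.00 without Sham 46, and the fits with the stellate or the macrophage score give lower values for all 10 genes.

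Markers of other cells moved with these genes. Of 13 tested markers of stellate cells, fibroblasts and pericytes (15 listed, Tcf21 and Gli1 below the filter) 12 were higher in PX, with a median log2 fold change of 1.45. Their summed level was 694 to 2903 CPM in PX and 273 to 922 CPM in Sham, the highest Sham value being that of Sham 46. Col3a1, a fibrillar collagen chain, averaged 985 ± 501 CPM in PX and 130.1 ± 89.7 CPM in Sham (± SD), and rose by 2.92 ± 0.34 on the log2 scale (SE; edgeR adjusted p = 2.3e-06). Dpt, the matrix protein dermatopontin, had 1.90 ± 0.26. Of 13 tested macrophage markers 13 were higher, with a median of 2.74 and a summed level of 196 to 1875 CPM in PX and 46.2 to 147 CPM in Sham; C1qc, a complement subunit of macrophages, had 2.47 ± 0.26 and Adgre1 had 2.29 ± 0.26.

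With the stellate and fibroblast score as a covariate, a setting chosen after seeing the data, 2 of 10 members kept a call, Postn at 2.64 and Tnc at 2.37 on the log2 scale (edgeR adjusted p = 0.025 and 0.038). Of all 13136 genes tested, 126 were called in this fit, 0.731% higher and 0.228% lower. Vcan, Dcn and Sparc had 2.19, 1.15 and 0.70 (adjusted p = 0.055, 0.072 and 0.059), Lum 0.83, and Thbs2, Fn1, Thbs1 and Bgn 0.26, 0.22, 0.12 and -0.14. With the macrophage score 0 of 10 were called by edgeR, where 12 genes in all were called and 1697 had an unadjusted p under 0.05. The scores differ between the groups, so such fits also take away part of the group difference itself, and the part of these cells in the result cannot be told apart from a change within other cells.

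Markers of the remaining cell types were called in part. Duct markers were higher for 6 of 9 tested (summed level 367 to 658 CPM in PX, 323 to 423 CPM in Sham), endothelial markers for 5 of 9 (649 to 950 CPM in PX, 452 to 932 CPM in Sham) and Schwann cell markers for 3 of 5 (46.9 to 87.8 CPM in PX, 44.7 to 52.7 CPM in Sham), with Sox10, Gfap, Cdh19 and Mag among those below the filter. Of the 2 mesothelial markers above the filter 1, Msln, was lower in PX by 0.45 ± 0.11. No platelet marker of 8 passed the filter, and Gp1bb had 0 reads in every library. Acinar markers were higher for 4 of 20 and lower for 0, with a median log2 fold change of 1.35. With the acinar score as a covariate all 10 members were called (edgeR), with log2 fold changes from 1.31 for Sparc to 4.93 for Vcan. Of all 13136 genes tested, 9.88% were called higher and 7.35% lower in this fit. Of 15 endocrine markers 4 were lower and 1, Iapp, was higher.

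Relatives of the members were called in part. Of 16 tested other matricellular genes (22 listed) 9 were higher and 1 lower in PX, with a median log2 fold change of 0.65. Spp1, osteopontin, averaged 230 ± 248 CPM in PX and 4.75 ± 4.95 CPM in Sham (± SD), and Fbln2, fibulin 2, had a log2 fold change of 2.05 ± 0.34. Tnr, tenascin R of nervous tissue, was lower by 0.82 ± 0.19 (edgeR adjusted p = 0.0023), opposite to Tnc. The nearest relatives of the members, named after their values were seen, were Thbs4 at 0.63 ± 0.24, Sparcl1 at 0.78 ± 0.17 and Thbs3 at 0.46 ± 0.24 on the log2 scale (edgeR adjusted p = 0.0498, 0.0013 and 0.143). Of 13 tested other proteoglycans (26 listed) 5 were higher and 2 lower, with a median of 0.33; Sdc1, the cell surface proteoglycan syndecan 1, and Prelp rose by 2.64 ± 0.40 and 1.05 ± 0.18, and Esm1 and Gpc4 fell by 0.66 ± 0.18 and 0.42 ± 0.14. Among the enzymes that build chondroitin and dermatan sulfate chains, those tested moved little, with a median of 0.10. Of 18 tested (25 listed) 2 were higher, Chsy1 at 0.92 ± 0.18 and Dse, the epimerase that makes dermatan sulfate, at 1.12 ± 0.21. Listed genes below the filter included Has2, with 155 reads over PX and 8 over Sham, and Ust, with 98 and 82, not scaled for depth.

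Among receptors 14 of 22 tested were higher and 0 lower, with a median log2 fold change of 0.93. Cd44, the hyaluronan receptor that also binds osteopontin, averaged 78.6 ± 41.7 CPM in PX and 8.19 ± 3.29 CPM in Sham (± SD); it rose by 3.25 ± 0.31 on the log2 scale, and Itgax, an integrin chain of myeloid cells, had 3.54 ± 0.43. Integrin chains of the same list, named after their values were seen, included Itgb5 at 0.70 ± 0.15 (edgeR adjusted p = 0.0012) and Itgav at 0.35 ± 0.15, which was not called (edgeR adjusted p = 0.083). They also included Itgb3, at 1.26 ± 0.34 (edgeR adjusted p = 0.0066).

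Of 14 tested proteases of these substrates (18 listed) 11 were higher and 1 lower, with a median of 1.61. Mmp12 and Mmp14 had 6.43 ± 0.71 and 2.58 ± 0.29, and Tll1 was lower by 0.63 ± 0.23. Adamts20, Mmp3, Mmp7 and Mmp9 were below the filter and not tested. Mmp9 had 1367 reads over PX and 5 over Sham, and Adamts20 had 105 and 34, not scaled for depth. Of 18 genes of TGF-beta signalling 7 were higher and 1 lower, with a median of 0.53. The receptor Tgfbr2 rose by 0.71 ± 0.14, and its partner Tgfbr1 fell by 0.42 ± 0.14 (edgeR adjusted p = 0.023). Of 20 tested collagen chains and genes of collagen processing (lysyl oxidases, lysyl and prolyl hydroxylases, Serpinh1 and Pcolce) 17 were higher and 0 lower, with a median of 1.89, and Col5a2 had 2.14 ± 0.25.

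**Figure D5:**
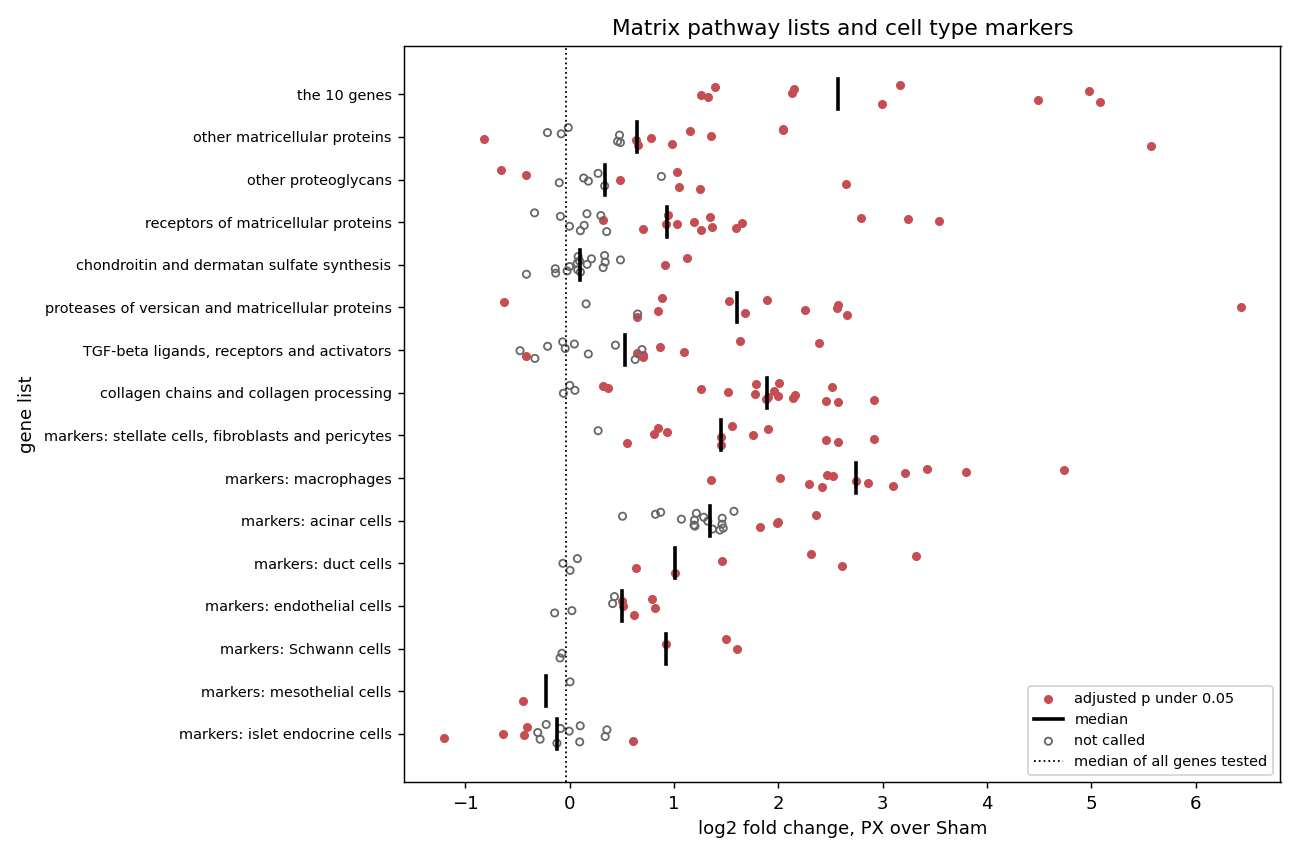
Log2 fold change of PX over Sham for the tested genes of each list (1 point per gene, filled where called at an adjusted p under 0.05), with the median of each list as a bar and the median of all genes tested, -0.04, as a dotted line. The 10 genes and the macrophage markers lie to the right with every point called, while the chondroitin and dermatan sulfate enzymes and the endocrine markers lie around 0.

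In the authors' deposited table of the same comparison, all 10 members are listed with an adjusted p-value under 0.05, from 1.0e-06 for Sparc to 2.7e-04 for Bgn. The log2 fold change in the authors' deposited table is 5.15 for Postn, 4.66 for Vcan, 4.23 for Tnc and 1.19 for Thbs1. With limma voom the counts used here also gave 5.15 for Postn and 1.19 for Thbs1, so the deposited values are not separate evidence. Of all 13136 genes tested in this voom fit, 14% were called higher and 17% lower. The share called among the 13140 rows of the deposited table was not counted.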

How the data were processed

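Polyadenylated RNA of 21 islet libraries was measured. Per the submitters' processing notes, the tools were FastQC, Subread, featureCounts and limma; the sources used here do not give their versions, the strand setting or the genome build. Deposited counts are whole reads per gene name, per the file headers, without normalization; the deposited gene length is in base pairs. The authors' deposited comparison table gives, per the file headers, a log2 fold change, its linear fold, a mean log2 expression and a p-value with its adjusted p. Per the labels the kit marks strand, but whether the counting used strand is unknown, so a gene and its antisense partner may share reads. 2 gene names occur more than once, and 0 per-sample columns were left unused.

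Genes were filtered with filterByExpr (at least 10 counts, and 15 in total), libraries scaled by TMM, and robust quasi-likelihood models fitted in edgeR 4.0.16 (R 4.3.3), for PX against Sham and for BG per 10 units within PX. Tests were two-sided, with Benjamini-Hochberg adjustment over all genes tested and a threshold of 0.05. Each SE is the log2 fold change over the square root of its F. Log2 CPM used a prior count of 2. The 5 ratios added 0.5 to each count and used 100000 resamples (scipy 1.17.1), enumerating exactly where a group fell below 10 libraries. Alternatives included DESeq2 1.42.0, limma 3.58.1 and each library left out. The fits were tested on simulated counts.

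Members, lists and tests were chosen with earlier results of these data known. Named genes were the 10 members, of each list up to 2 called genes of smallest p in each direction with a mean of at least 1 CPM, and the 3 genes most alike to each member, without names starting with LOC or RGD or being clone or RNA family names; not every gene so named is reported here. Leaving out Sham 46, PX 44 and PX 65 together and the stellate and macrophage scores as covariates were chosen after seeing the data.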

Additional observations from a re-analysis of the deposited data

Results flagged for a closer look

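In the 10 Sham libraries 2 of the 15 members and ratios examined had a library far from the rest, which chance alone gives in about 1 in 20 groups. Both were Sham 46: Fn1 had a log2 CPM of 5.94 against 3.47 in the next Sham library, and Postn had 3.5 against 1.52. The gap took 0.621 and 0.504 of the range of the 10 libraries, above the critical value of 0.466. Beside this, Sham 46 had the highest mean log2 CPM of stellate and fibroblast markers in Sham, 5.05 against 4.29 in the next library, and of macrophage markers, 2.85 against 1.95; their part in the raised levels was not tested.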

How the results depend on the processing

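All 10 members stayed called higher under 36 of 38 alternatives, those leaving out any 1 library included; the exceptions were the stellate and fibroblast score as covariate (2 called) and the macrophage score (0), both also given in the report, where Bgn turned to -0.14 and Fn1 to -0.20 on the log2 scale. Leaving out 1 library gave Fn1 2.79 to 4.00 and Postn 4.88 to 5.83, and without Sham 46, PX 44 and PX 65 together they were 4.17 and 5.79; with voom quality weights Fn1 was 3.70. The median of all genes was -0.28 with library totals only, with 990 genes higher and 2227 lower against 1961 and 2127. Genes called in all numbered 126 with the stellate score, 12 with the macrophage score, and 2263 with the acinar score, against 4088; they numbered 1375 with PX 36 to 44 alone, 1583 with Sham 46 to 50 alone, 2550 with PX of BG 121 or less and 6414 with voom quality weights.

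No member was called for BG under any of 24 alternatives, but the signs of the slopes were unstable. Without the PX animals of BG 156 and 174 the slopes of Fn1, Postn, Thbs2, Dcn, Bgn and Lum turned to -0.079, -0.067, -0.14, -0.018, -0.064 and -0.16, with library totals only those of Sparc, Vcan and Bgn to -0.013, -0.0077 and -0.0053, and without the 20 most abundant genes Vcan to -0.0036. With the stellate score Fn1, Thbs1, Thbs2, Vcan and Bgn turned to -0.050, -0.019, -0.089, -0.043 and -0.073. Leaving out 1 PX library gave Fn1 -0.073 to 0.15, Thbs1 -0.028 to 0.15, Thbs2 -0.14 to 0.21, Vcan -0.12 to 0.20 and Bgn -0.093 to 0.14; the lowest value of each was without PX 41. Genes called for the slope in all numbered 18 with DESeq2, 6 without a filter, 4 with group and BG over all libraries and 1 without PX 41.

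Of the ratios, Bgn to Dcn lost its call with PX of BG 121 or less (-0.49) and without Sham 46, PX 44 and PX 65 together (-0.26), and ran from -0.77 to -0.52 with 1 library left out; the other 4 kept theirs in all 24 alternatives. No paired analysis was possible because PX and Sham share no animal number. Depth limits Vcan, Postn and Tnc most, whose Sham libraries hold as few as 1, 4 and 6 reads.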

Other observations

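Dcn and Lum belong to a row of small leucine-rich proteoglycan genes on chromosome 7, in which Kera (keratocan of the cornea) and Epyc (epiphycan of cartilage) follow in the count table. Their neighbours were almost silent: Kera had 0 reads over all PX libraries and 1 over all Sham libraries, and Epyc had 2 and 0. Other members of the class below the filter were Aspn, with 84 reads over PX and 28 over Sham, and Ogn, with 32 and 20. Acan, aggrecan of cartilage, had 1 and 5. These totals are not scaled for depth.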
